A study of Mus musculus with 9 samples.

Results

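The 42 genes described here build and run the mitotic machinery: mitotic kinases, spindle checkpoint proteins, centromere and kinetochore subunits, the chromosomal passenger complex, spindle and cytokinesis factors, and regulators of anaphase and mitotic exit. They also include a pair of transcription factors that activate mitotic genes, and Top2a and Mki67, which are commonly read as markers of dividing cells. They were chosen by gene symbol, with earlier results of these data known, and all 42 were among the 16428 genes of the deposited expression table. Poly(A) RNA of mouse embryonic fibroblasts (MEFs) was sequenced in 9 libraries, 3 in each of 3 groups. CARM1 is an arginine methyltransferase that acts on histone H3 and on transcriptional coactivators, and the study set its chemical inhibition and its genetic deletion against untreated cells.

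All 3 groups carried the genotype CARM1f/f ER-Cre, that is, floxed Carm1 alleles and a Cre recombinase that tamoxifen compounds activate, and all grew in RPMI 1640 for 6 days. CARM1i cells received the CARM1 inhibitor TP-064 at 1 uM for those 6 days. KO cells received 4-OHT (4-hydroxytamoxifen) at 2 uM for 6 days. WT cells had the same floxed alleles and Cre and received neither agent. The labels name no vehicle group and no 4-OHT-treated cells without floxed alleles, so effects of deletion and of 4-OHT cannot be told apart in the KO group. The labels do not give the promoter that drives Cre, the number of embryos or clones behind the cells, or whether replicates were separate cultures. The p-values therefore rest on variation among these particular libraries and may reflect technical variation alone.

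As background, chromosomes are captured by kinetochores, which assemble on the centromeric histone Cenpa and hold microtubules through the Ndc80 complex. Unattached kinetochores recruit Bub and Mad proteins, which restrain Cdc20, the activator of the anaphase-promoting complex (APC/C), until every chromosome is attached. The APC/C then marks securin and cyclin B for destruction, which frees separase to open cohesin rings and lets the cell leave mitosis. Most genes of this machinery are transcribed late in the cell cycle, in cells that divide, under the MuvB complexes with B-Myb (Mybl2) and Foxm1, so in asynchronous cultures their RNA levels follow proliferation.

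The values are normalized counts, that is, read counts per gene divided by one size factor per library. The 9 libraries held 28657018 to 35842771 recovered reads over the listed genes. Carm1 itself averaged 1057 ± 64.0 normalized counts in CARM1i cells, 758 ± 43.0 in KO cells and 1104 ± 34.1 in WT cells (SD, n = 3 each). These reads were counted over the whole gene and so do not check the deletion of the floxed exons. CARM1i replicate 3 stood apart from the other CARM1i libraries on the third principal component, which held 9.58% of the variance, with a score of -19.5 against 10.97 and 11.7. Of 10 fibroblast markers, 9 were tested, and their summed level was 353461 to 384102 in CARM1i libraries, 347102 to 365978 in KO libraries and 377619 to 387646 in WT libraries. In KO cells 7 of these 9 fell and 2 rose, against 20.5% and 21.4% of all genes tested. In CARM1i cells 4 fell and 2 rose, against 8.59% and 10.5% of all genes tested. The largest single part of the sum was Fn1 (fibronectin), which rose in both treated groups. Its means were 133909 normalized counts in CARM1i, 161679 in KO and 122653 in WT cells. Col1a2 and Vim, the next largest in WT cells, had means there of 79690 and 72379. Col1a2 was at 87.6% of WT in CARM1i and 71.5% in KO cells, both called lower. Vim was at 95.4% in CARM1i cells, which was not called, and at 87.6% in KO cells, which was called lower. Col1a1 and Col3a1, which encode fibrillar collagen chains, fell in both, Col1a1 to 73.8% of WT in CARM1i and 52.1% in KO cells and Col3a1 to 71.95% in CARM1i and 41.4% in KO cells. Pdgfra was at 93.4% of WT in CARM1i cells, which was not called, and fell to 62.3% in KO cells. The listed neural markers, Nes, Tubb3 and Ncam1, summed to 5780 to 6564 normalized counts in CARM1i libraries, 5854 to 6183 in KO libraries and 7518 to 7854 in WT libraries. Most of this sum was Ncam1, which fell to 80.7% of WT in CARM1i and 80.0% in KO cells. Nes fell to 77.5% of WT in CARM1i and 51.1% in KO cells. Tubb3 was at 72.2% of WT in CARM1i cells, which was not called, and fell to 32.9% in KO cells. Markers of macrophages summed to 294 to 329 in CARM1i, 304 to 341 in KO and 259 to 321 in WT libraries, and those of endothelium to 435 to 454 in CARM1i, 463 to 525 in KO and 390 to 446 in WT libraries. Within these lists, Cd68 rose in KO cells, with means of 50.2 in CARM1i, 86.0 in KO and 42.5 in WT cells. Its KO and WT libraries overlapped, with KO replicate 1 at 54.0 and WT replicate 2 at 56.8. Cd14 fell in KO cells, with means of 135 in CARM1i, 109 in KO and 147 in WT cells, and Egfl7 rose in both treated groups. The epithelial keratin gene Krt18 had 32.4 to 43.8 normalized counts in CARM1i, 91.9 to 126 in KO and 23.3 to 48.0 in WT libraries, and the muscle actin gene Acta1 91.5 to 174 in CARM1i, 205 to 251 in KO and 142 to 159 in WT libraries. The markers Adgre1, Ptprc, Itgam, Epcam, Cdh1, Krt8, Sox2, Myod1, Myog and Des were not among the genes analysed here. The part of these marker changes in the results below was not tested.

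Of the 42 genes, 41 fell in CARM1i cells and all 42 fell in KO cells, both relative to WT cells. The fall was larger in KO cells: the median change was -0.48 on the log2 scale in CARM1i cells against WT and -1.15 in KO cells against WT, which share the WT libraries. Between the treated groups, 41 of 42 genes were higher in CARM1i than in KO cells, with a median difference of 0.74. In bulk RNA, fewer dividing cells and less mitotic RNA per cell cannot be told apart. Together the 42 genes took 0.181% to 0.193% of all reads in CARM1i libraries, 0.120% to 0.121% in KO libraries and 0.256% to 0.266% in WT libraries.

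A gene was called changed when limma's moderated test on log2(normalized count + 1), fitted to all 14560 genes that averaged at least 10, gave an adjusted p under 0.05 over all of those genes. In CARM1i cells against WT, 41 of the 42 genes were called lower, all but Cenpm, against 8.59% of all tested genes. In KO cells against WT, 42 of 42 were called lower, against 20.5% of all tested genes. In CARM1i against KO cells, 41 of 42 were called higher, all but Bub3, against 12.1% of all tested genes. The median change of all tested genes was -0.0047 in CARM1i and -0.0043 in KO cells against WT, and -0.0021 in CARM1i against KO cells. None of the 42 was called in the opposite direction in any comparison. Because the genes were chosen with earlier results of these data known, the shares of all tested genes here and below are for description. They do not make these counts a test of the set. Without CARM1i replicate 3, the number called was 38 against WT, with a median of -0.45, and 41 against KO, with a median of 0.76.

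**Figure D1:**
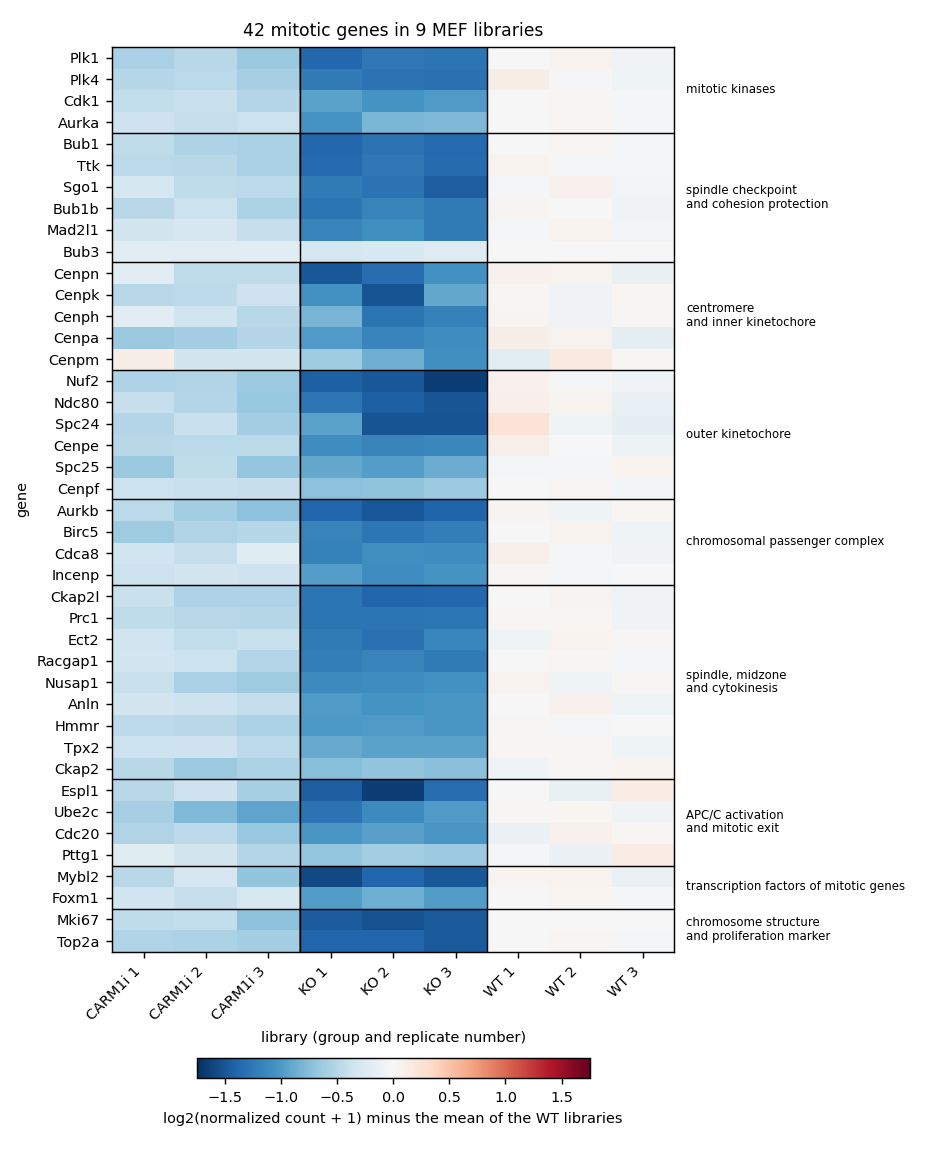
Level of each of the 42 genes (rows, grouped by role) in each of the 9 libraries (columns), as log2(normalized count + 1) minus the mean of the 3 WT libraries for that gene. Blue is below the WT mean: the KO columns are the darkest, the CARM1i columns are paler, and Bub3 is pale in all columns.

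The order of the groups was nearly the same for every gene. The group means ran KO, CARM1i, WT from low to high for 42 of 42 genes and for 29.7% of all tested genes. For 41 of 42 genes, every KO library lay below every CARM1i library, and every CARM1i library below every WT library, which held for 7.01% of all tested genes. Cenpm was the exception. The CARM1i and WT libraries did not overlap for 41 genes, against 16.7% of all tested genes with CARM1i below WT. The KO and WT libraries did not overlap for 42 genes, against 25.9% with KO below WT, and the CARM1i and KO libraries did not overlap for 42, against 18.3% with CARM1i above KO.

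Single libraries showed the same shift. The median of the 42 genes, relative to their WT means on the log2 scale, was -0.44, -0.44 and -0.51 in CARM1i libraries, -1.16, -1.17 and -1.14 in KO libraries, and 0.01, 0.03 and -0.04 in WT libraries. Below the WT mean lay 41 of the 42 genes in CARM1i replicate 1, 42 in each of the other CARM1i libraries, and 42 in each KO library. The spread within groups was small, with a median coefficient of variation over the 42 genes of 5.07% in CARM1i, 3.93% in KO and 4.26% in WT libraries. The noisiest genes were Cenpm in CARM1i libraries (18.2%) and Spc24 in KO and WT libraries (24.6% and 14.8%).

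CARM1i levels of the 42 genes ranged from 59.1% (Ube2c) to 88.5% (Cenpm) of the WT mean, with a median of 71.8%. There 0 of the 42 lay more than 2-fold below WT, as did only 0.350% of all tested genes. KO levels ranged from 34.8% (Nuf2) to 83.3% (Bub3) of the WT mean, with a median of 45.2%, and 31 of them fell by more than 2-fold, as 2.51% of all tested genes lay more than 2-fold below WT. Per kilobase of exon, the mean levels ran from 40.05 normalized counts (Cenpk) to 971 (Top2a) in CARM1i cells, with a median of 193. They ran from 24.6 (Cenpk) to 634 (Cdk1) in KO cells, with a median of 129, and from 54.1 (Cenpk) to 1433 (Top2a) in WT cells, with a median of 265. The 42 genes lie on 15 chromosomes, with 9 on chromosome 2 and 5 on chromosome 11.

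**Figure D2:**
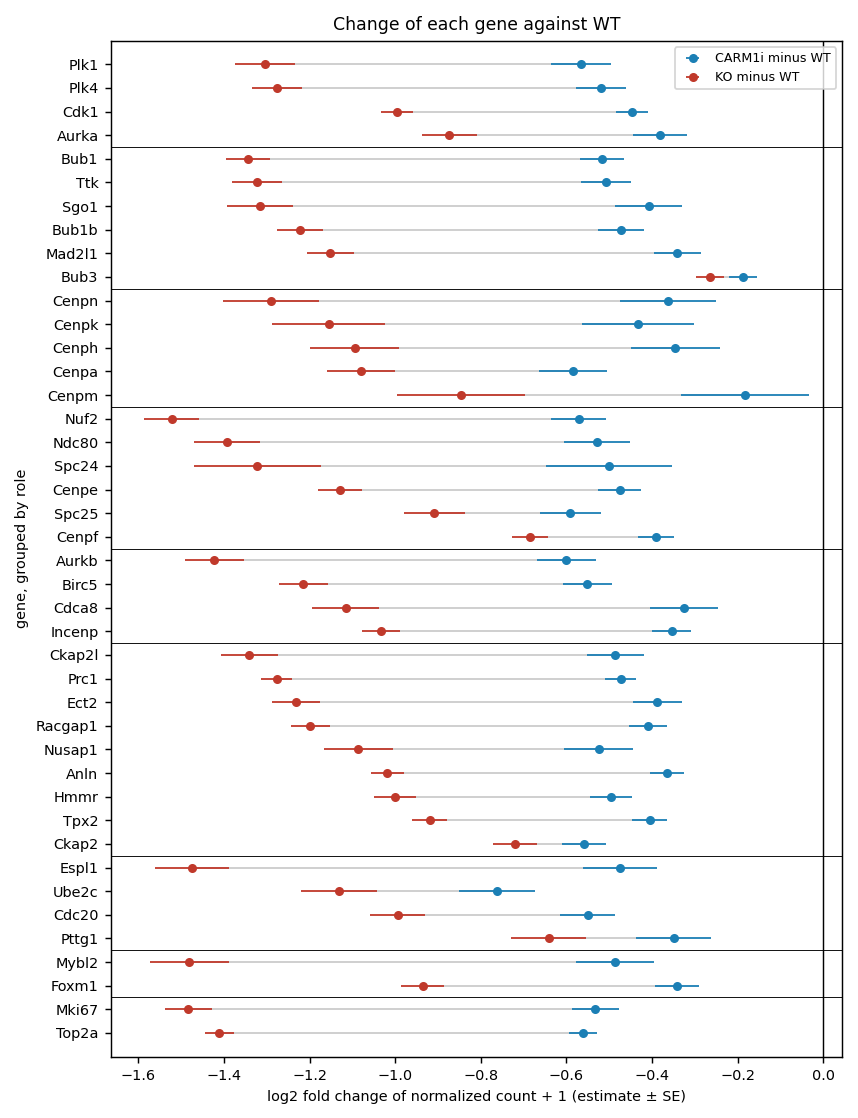
Change of each gene against WT on the log2 scale of normalized count + 1 (x axis; points are limma estimates, bars ± SE, from 3 libraries a group), with genes grouped by role on the y axis. Every KO estimate lies further below 0 than the CARM1i estimate of the same gene; the pair lies closest together for Bub3, at -0.19 in CARM1i and -0.26 in KO cells.

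Promoters of mitotic genes are known for a short element near the start, the cell cycle genes homology region (CHR), which MuvB complexes bind, and for CCAAT boxes upstream, which NF-Y binds. RefSeq promoter windows of 300 bases (250 before and 50 after the start, build GRCm38.p6) were at hand for 37 of the 42 genes, as 42 windows. Aurkb, Foxm1, Incenp, Spc24 and Tpx2 had none. For 33 of the 42 windows, a stretch just after the start was found in a GENCODE M21 transcript of the gene. Such a match does not fix the start, because a window that begins inside the gene can match too. All positions are therefore relative to the RefSeq start. In the other windows no such match was found, and the start is less certain still. The CHR was searched as TTTGAA or TTCGAA and the CCAAT box as CCAAT, each on both strands, and matches may share letters. A CHR match stood in 71.4% of the members' windows, against 14.04% of the 13139 windows of all tested genes and 19.2% of all 32851 windows. For a CHR match within 50 bases of the start, the shares were 61.9% of the members' windows, 3.69% of those of all tested genes and 5.31% of all windows. At least 2 CCAAT matches stood in 47.6% of the members' windows, 14.3% of those of all tested genes and 11.7% of all windows. Both together stood in 38.1% of the members' windows, 0.769% of those of all tested genes and 0.718% of all windows. A match is a description of letters and not a binding site.

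The 250 bases before the start are shown for 5 members: Top2a, with the highest WT level per kilobase; Cdc20 and Ube2c, the APC/C activator and its ubiquitin-conjugating enzyme; Bub3, which fell least in KO cells; and Nuf2, whose estimated fall there was the largest. Capitals mark CHR and CCAAT matches on either strand, and each sequence runs 5′ to 3′ on the strand of its gene.
Top2a, chr11:99024190-99024439, minus strand: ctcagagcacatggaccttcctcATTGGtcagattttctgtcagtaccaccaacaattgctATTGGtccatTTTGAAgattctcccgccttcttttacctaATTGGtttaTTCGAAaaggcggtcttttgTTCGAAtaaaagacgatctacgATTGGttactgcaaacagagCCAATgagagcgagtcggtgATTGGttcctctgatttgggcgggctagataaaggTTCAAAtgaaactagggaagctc
Cdc20, chr4:118437344-118437593, minus strand: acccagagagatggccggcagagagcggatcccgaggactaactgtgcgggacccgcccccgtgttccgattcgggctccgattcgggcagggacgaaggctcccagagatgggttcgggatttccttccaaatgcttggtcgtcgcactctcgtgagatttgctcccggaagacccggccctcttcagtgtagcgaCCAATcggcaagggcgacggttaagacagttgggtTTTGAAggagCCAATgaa
Ube2c, chr2:164769679-164769928, plus strand: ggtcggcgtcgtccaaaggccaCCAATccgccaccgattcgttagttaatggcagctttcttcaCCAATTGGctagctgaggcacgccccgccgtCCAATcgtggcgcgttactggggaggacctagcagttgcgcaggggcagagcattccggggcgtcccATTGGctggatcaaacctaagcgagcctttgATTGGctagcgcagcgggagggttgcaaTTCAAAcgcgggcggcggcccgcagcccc
Bub3, chr7:131560120-131560369, plus strand: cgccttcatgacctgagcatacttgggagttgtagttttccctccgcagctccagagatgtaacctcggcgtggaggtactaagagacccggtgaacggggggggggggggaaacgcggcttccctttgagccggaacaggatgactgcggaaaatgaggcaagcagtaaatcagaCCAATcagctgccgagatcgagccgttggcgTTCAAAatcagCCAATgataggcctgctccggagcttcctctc
Nuf2, chr1:169531465-169531714, minus strand: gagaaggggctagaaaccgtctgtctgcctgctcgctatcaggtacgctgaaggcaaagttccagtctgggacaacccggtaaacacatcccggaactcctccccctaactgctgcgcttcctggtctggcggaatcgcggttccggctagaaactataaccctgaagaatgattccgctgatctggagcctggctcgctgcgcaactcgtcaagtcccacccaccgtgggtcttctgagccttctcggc

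In these promoters the CHR match nearest the start began at position -23 in Top2a, -18 in Cdc20, -29 in Ube2c and -43 in Bub3, counted back from the base before the start as -1. Other members differed in this. Some also had it before the start, as Cdk1 at -15. In others it stood only after the start, in bases not printed here, as in Bub1 (15), Hmmr (9) and Plk1 (31), counted from the start as 1. Top2a held 6 CCAAT matches, at -227, -189, -149, -98, -78 and -58. Ube2c also held 6, of which those at -186 and -183 share letters. Cdc20 had CCAAT matches at -53 and -8, and Bub3 at -74 and -32. In GENCODE M21 the Bub3 gene starts at base 131560222, inside the printed Bub3 window. The CHR and CCAAT matches of Bub3 thus lie within the annotated gene, and their distance from the start depends on the annotation. A second Bub3 window, from a start further downstream and not shown, held the same CHR match at -167. Its CCAAT matches, also the same, stood at -198 and -156. The Nuf2 window held neither motif, which says only that these letters are not in it. Over the members, the 24 genes with a CHR match within 50 bases of a start had a median change of -0.47 in CARM1i cells and -1.21 in KO cells against WT. The 13 genes with a window but no such match had medians of -0.49 in CARM1i cells and -1.15 in KO cells.

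The 4 mitotic kinases fell in both treated groups, with median changes of -0.48 in CARM1i and -1.14 in KO cells. Plk1, a polo-like kinase of mitotic entry and kinetochore attachment, had 515, 543 and 484 normalized counts in CARM1i libraries, 293, 318 and 312 in KO libraries, and 766, 792 and 726 in WT libraries. All CARM1i libraries lay between the KO and the WT libraries. The change of Plk1 was -0.57 ± 0.07 (SE) on the log2 scale in CARM1i cells (limma adjusted p = 1.46e-05) and -1.31 ± 0.07 in KO cells (6.17e-11), so that KO cells kept 40.4% of the WT level. Aurka, the Aurora kinase of spindle poles, changed least in KO cells among these kinases. It had 797, 772 and 788 normalized counts in CARM1i libraries, 501, 586 and 591 in KO libraries, and 1022, 1046 and 1001 in WT libraries. The groups were again apart, with changes of -0.38 ± 0.06 in CARM1i cells (limma adjusted p = 0.000298) and -0.87 ± 0.06 in KO cells (3.57e-09). Cdk1, the cyclin-dependent kinase that drives entry into mitosis, changed by -0.45 ± 0.04 in CARM1i and -0.996 ± 0.04 in KO cells, and Plk4, the kinase of centriole duplication, by -0.52 ± 0.06 in CARM1i and -1.28 ± 0.06 in KO cells. Of the annotated exon length of Plk1, 7.09% overlaps a gene on the opposite strand, and the strand setting of the counting is not given in the sources used here.

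Of the 6 spindle checkpoint and cohesion protection genes, 5 fell by more than 2-fold in KO cells, while Bub3 fell to 83.3% of WT. Bub1, a kinase that recruits checkpoint proteins to kinetochores, had 1139, 1057 and 1041 normalized counts in CARM1i libraries, 593, 629 and 600 in KO libraries, and 1538, 1582 and 1513 in WT libraries. Its CARM1i mean was 69.9% of its WT mean, and its KO mean 39.3%. Bub1b (BubR1), which with Bub3, Mad2l1 and Cdc20 forms the inhibitor of the APC/C, had 1241, 1342 and 1193 normalized counts in CARM1i libraries, 716, 777 and 748 in KO libraries, and 1812, 1758 and 1668 in WT libraries. The Bub1 change was -0.52 ± 0.05 in CARM1i cells (limma adjusted p = 1.5e-06) and -1.34 ± 0.05 in KO cells (8.89e-13). The Bub1b change was -0.47 ± 0.05 in CARM1i cells (limma adjusted p = 6.43e-06) and -1.22 ± 0.05 in KO cells (6.13e-12).

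Bub3, the small adaptor that carries both Bub1 and Bub1b to kinetochores, had 3958, 3976 and 3949 normalized counts in CARM1i libraries, 3658, 3745 and 3865 in KO libraries, and 4516, 4517 and 4498 in WT libraries. The libraries of the 3 groups did not overlap, and the CARM1i mean was 87.8% of the WT mean. Its change was -0.19 ± 0.03 in CARM1i cells (limma adjusted p = 0.000385) and -0.26 ± 0.03 in KO cells (2.48e-06). The difference between CARM1i and KO cells was 0.08 ± 0.03 and missed the threshold (limma adjusted p = 0.0944), although quantile normalization brought it to 0.0355. Per kilobase of exon, Bub3 was at 565 normalized counts in CARM1i, 536 in KO and 644 in WT cells, and was the most abundant checkpoint gene in all 3 groups. The remaining genes of the group were Ttk (Mps1), the kinase that starts checkpoint signalling, Mad2l1 (Mad2), which binds Cdc20, and Sgo1, which protects cohesin at centromeres. They changed by -0.34 to -0.51 in CARM1i cells and by -1.15 to -1.32 in KO cells, and all 3 were called in each comparison.

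The 5 centromere and inner kinetochore genes had median changes of -0.36 in CARM1i and -1.09 in KO cells. Cenpn, which binds Cenpa nucleosomes, had 372, 315 and 312 normalized counts in CARM1i libraries, 151, 169 and 205 in KO libraries, and 449, 443 and 390 in WT libraries. Its change was -0.36 ± 0.11 in CARM1i cells (limma adjusted p = 0.0297) and -1.29 ± 0.11 in KO cells (3.72e-08). Cenpm, another subunit of the constitutive centromere network, had 217, 160 and 160 normalized counts in CARM1i libraries, 131, 111 and 95.4 in KO libraries, and 177, 227 and 203 in WT libraries. CARM1i replicate 1 lay above WT replicates 1 and 3, so the CARM1i and WT libraries overlapped, while every KO library lay below both groups. The Cenpm difference was -0.18 ± 0.15 in CARM1i cells against WT (limma adjusted p = 0.449), -0.85 ± 0.15 in KO cells against WT (0.000165), and 0.66 ± 0.15 in CARM1i against KO cells (0.00323). The miss against WT does not show equal levels, since 2 of the 3 CARM1i libraries were the lowest of the 6.

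Cenpa, the histone H3 variant that marks centromeres, changed by -0.59 in CARM1i and -1.08 in KO cells, and Cenph and Cenpk, which join the Ndc80 complex to the centromere, by -0.35 and -0.43 in CARM1i and by -1.09 and -1.16 in KO cells. These KO calls held with any library left out, but 3 of the calls in CARM1i cells did not. The Cenpk call in CARM1i cells ended without CARM1i replicate 1 or 2 (limma adjusted p = 0.0831 or 0.0699) and without WT replicate 1, 2 or 3 (0.0868, 0.059 or 0.0703). The Cenpn call ended without CARM1i replicate 2 or 3 (limma adjusted p = 0.0969 or 0.0746) and without WT replicate 1 or 2 (0.111 or 0.112), and with replicate number as a block (0.0521). The Cenph call ended without CARM1i replicate 2 or 3 (limma adjusted p = 0.0589 or 0.0823) and without WT replicate 1, 2 or 3 (0.0904, 0.0501 or 0.0626).

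**Figure D3:**
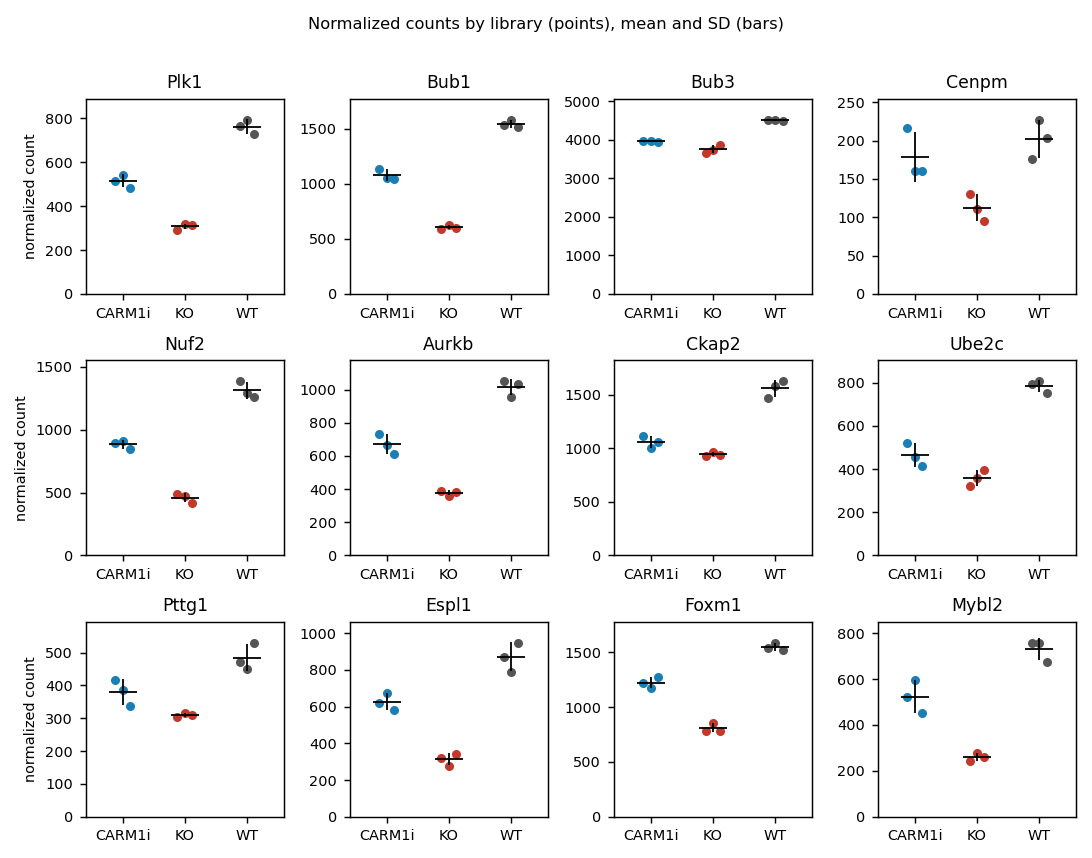
Normalized counts (y axes, from 0, with a scale of their own in each panel) of 12 of the 42 genes in the 3 CARM1i, 3 KO and 3 WT libraries; points are libraries, horizontal bars means and vertical bars SD. CARM1i points lie between KO and WT points in every panel except that of Cenpm, where CARM1i and WT points overlap.

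The outer kinetochore held the gene with the largest estimated fall in KO cells, Nuf2, which encodes a subunit of the Ndc80 complex and whose promoter held neither motif. Nuf2 had 898, 907 and 843 normalized counts in CARM1i libraries, 485, 469 and 417 in KO libraries, and 1386, 1295 and 1257 in WT libraries. The CARM1i mean was 67.2% of the WT mean and the KO mean 34.8%, with changes of -0.57 ± 0.06 in CARM1i cells (limma adjusted p = 5.29e-06) and -1.52 ± 0.06 in KO cells (3.27e-12). Mki67 (-1.48), Mybl2 (-1.48) and Espl1 (-1.47) lay within 1 SE of it in KO cells. Cenpf, a large coiled-coil protein of the kinetochore corona, fell least of this group in KO cells. Its normalized counts were 1496, 1486 and 1478 in CARM1i libraries, 1188, 1191 and 1258 in KO libraries, and 1966, 1997 and 1885 in WT libraries. That corresponds to 76.3% of WT in CARM1i cells and 62.2% in KO cells, with a change of -0.39 ± 0.04 in CARM1i cells (limma adjusted p = 4.04e-06) and -0.69 ± 0.04 in KO cells (4.6e-10).

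The other subunits of the Ndc80 complex, which couples kinetochores to microtubules, also fell in both groups. In CARM1i cells Ndc80 changed by -0.53, Spc24 by -0.50 and Spc25 by -0.59, and in KO cells Ndc80 by -1.39, Spc24 by -1.32 and Spc25 by -0.91. Spc25, the most abundant outer kinetochore gene per kilobase in each group, had 496, 576 and 487 normalized counts in CARM1i libraries, 420, 401 and 425 in KO libraries, and 770, 761 and 813 in WT libraries. All CARM1i libraries were below the lowest WT library and above the highest KO library, and the difference between CARM1i and KO cells was 0.32 ± 0.07 (limma adjusted p = 0.00306). Cenpe, the kinesin motor that moves chromosomes to the spindle equator, changed by -0.48 in CARM1i and -1.13 in KO cells. The Spc24 call in CARM1i cells ended without CARM1i replicate 1 or 3 (limma adjusted p = 0.0639 or 0.055) and without WT replicate 1 or 2 (0.134 or 0.0509).

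The chromosomal passenger complex, which corrects faulty attachments and later guides cytokinesis, had medians of -0.45 in CARM1i and -1.17 in KO cells. Its kinase Aurkb (Aurora B) changed most in KO cells and its scaffold Incenp least. Aurkb had 732, 663 and 613 normalized counts in CARM1i libraries, 387, 361 and 384 in KO libraries, and 1050, 957 and 1034 in WT libraries. Incenp had 1378, 1421 and 1381 normalized counts in CARM1i libraries, 909, 838 and 865 in KO libraries, and 1803, 1761 and 1780 in WT libraries. Neither gene had overlapping groups. The Aurkb change was -0.60 ± 0.07 in CARM1i cells (limma adjusted p = 7.77e-06) and -1.42 ± 0.07 in KO cells (1.96e-11), and the Incenp change -0.35 ± 0.04 in CARM1i cells (limma adjusted p = 1.86e-05) and -1.03 ± 0.04 in KO cells (5.07e-12). Birc5 (survivin) and Cdca8 (borealin), which dock the complex at centromeres, changed by -0.55 and -0.33 in CARM1i cells and by -1.22 and -1.12 in KO cells.

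Spindle, midzone and cytokinesis genes fell in both groups, 9 of 9, with medians of -0.47 in CARM1i and -1.09 in KO cells. Ckap2l, a protein of mitotic spindle microtubules, had 661, 596 and 594 normalized counts in CARM1i libraries, 357, 331 and 334 in KO libraries, and 869, 896 and 827 in WT libraries. Its relative Ckap2, which also binds spindle microtubules, had 1112, 1004 and 1059 normalized counts in CARM1i libraries, 927, 969 and 941 in KO libraries, and 1472, 1581 and 1625 in WT libraries. These relatives marked the ends of the group in KO cells. In CARM1i cells Ckap2l changed by -0.49 ± 0.07 (limma adjusted p = 4.5e-05) and Ckap2 by -0.56 ± 0.05 (8.69e-07), and in KO cells Ckap2l by -1.34 ± 0.07 (limma adjusted p = 2.28e-11) and Ckap2 by -0.72 ± 0.05 (3.49e-09). The CARM1i mean of Ckap2 was 112% of its KO mean, and the difference of 0.16 ± 0.05 was called (limma adjusted p = 0.0323). That call ended without KO replicate 1 or 3 (limma adjusted p = 0.0985 or 0.0885), without CARM1i replicate 1 (0.143), under quantile normalization (0.0784), without limma's trend (0.0792), with DESeq2 (DESeq2 adjusted p = 0.0512), and with replicate number as a block (0.0522).

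Tpx2, which activates Aurka on spindle microtubules, and Anln (anillin), the scaffold of the contractile ring, were the most abundant genes of this group per kilobase. Tpx2 had 3021, 3070 and 2837 normalized counts in CARM1i libraries, 2134, 2057 and 2057 in KO libraries, and 4047, 4020 and 3756 in WT libraries. Anln had 5129, 4986 and 4788 normalized counts in CARM1i libraries, 3213, 3106 and 3152 in KO libraries, and 6404, 6740 and 6057 in WT libraries. Both showed 3 separate groups, with CARM1i means of 75.5% (Tpx2) and 77.6% (Anln) and KO means of 52.9% (Tpx2) and 49.3% (Anln) of the WT mean. Prc1, which crosslinks microtubules of the midzone, Ect2, the exchange factor that activates RhoA there, and its partner Racgap1 changed by -0.47, -0.39 and -0.41 in CARM1i cells and by -1.28, -1.23 and -1.20 in KO cells. Nusap1, a microtubule-bundling protein of the spindle, and Hmmr, a protein of spindle poles, changed by -0.52 and -0.50 in CARM1i cells and by -1.09 and -1.002 in KO cells. Of the exon length of Prc1, 11.1% overlaps a gene on the opposite strand.

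Among the genes of anaphase onset and mitotic exit, Espl1 (separase), the protease that opens cohesin, and Pttg1 (securin), its inhibitor, marked the ends. Espl1 had 621, 674 and 581 normalized counts in CARM1i libraries, 318, 277 and 344 in KO libraries, and 873, 791 and 948 in WT libraries. Pttg1 had 416, 386 and 339 normalized counts in CARM1i libraries, 303, 316 and 310 in KO libraries, and 471, 451 and 530 in WT libraries. In CARM1i cells the protease was at 71.8% of its WT mean and the inhibitor at 78.5%, and in KO cells the protease was at 36.0% and the inhibitor at 63.9%. Espl1 changed by -0.48 ± 0.09 in CARM1i cells (limma adjusted p = 0.000704) and by -1.47 ± 0.09 in KO cells (2.11e-10), and Pttg1 by -0.35 ± 0.09 in CARM1i cells (limma adjusted p = 0.00843) and by -0.64 ± 0.09 in KO cells (1.03e-05). In CARM1i against KO cells the difference was 1.00 ± 0.09 for Espl1 (limma adjusted p = 1.44e-07) and 0.29 ± 0.09 for Pttg1 (0.0215). The Pttg1 call between CARM1i and KO ended without KO replicate 1 or 3 (limma adjusted p = 0.064 or 0.0578), without CARM1i replicate 1 or 2 (0.113 or 0.0659), and without limma's trend (0.0579).

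Cdc20 and Ube2c, whose promoters are printed above, are described here because their values stood out when they were examined. Cdc20 had 797, 838 and 723 normalized counts in CARM1i libraries, 569, 596 and 565 in KO libraries, and 1071, 1207 and 1175 in WT libraries. Ube2c, the ubiquitin-conjugating enzyme that starts chains for the APC/C, had 521, 457 and 413 normalized counts in CARM1i libraries, 321, 360 and 395 in KO libraries, and 792, 807 and 754 in WT libraries. The lowest CARM1i library of Ube2c lay just above its highest KO library. Ube2c had the largest estimated fall of the 42 genes in CARM1i cells, -0.76 ± 0.09 (limma adjusted p = 7.48e-06), beside -1.13 ± 0.09 in KO cells (9.23e-09). Cdc20 changed by -0.55 ± 0.06 in CARM1i cells (limma adjusted p = 7.69e-06) and by -0.99 ± 0.06 in KO cells (7.17e-10). Of the exon length of Ube2c, 22.8% overlaps Tnnc2 on the opposite strand, so its reads cannot be assigned with certainty.

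Both transcription factors of mitotic genes fell in each treated group. Mybl2 (B-Myb), which joins MuvB in S phase, had 522, 596 and 452 normalized counts in CARM1i libraries, 244, 277 and 261 in KO libraries, and 756, 759 and 676 in WT libraries. Foxm1, a forkhead factor that MuvB and B-Myb recruit to mitotic promoters, had 1220, 1176 and 1277 normalized counts in CARM1i libraries, 787, 859 and 787 in KO libraries, and 1540, 1590 and 1524 in WT libraries. Both had 3 separate groups, and Mybl2 the deeper fall in KO cells. Mybl2 changed by -0.49 ± 0.09 in CARM1i cells (limma adjusted p = 0.000942) and by -1.48 ± 0.09 in KO cells (4.38e-10). Foxm1 changed by -0.34 ± 0.05 in CARM1i cells (limma adjusted p = 9.73e-05) and by -0.94 ± 0.05 in KO cells (7.5e-11). The CARM1i mean of Mybl2 was 201% of its KO mean. Of the exon length of Foxm1, 4.19% overlaps other annotated genes on the same strand.

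Top2a (topoisomerase II alpha), which untangles sister chromatids, and Mki67 (Ki-67), which coats mitotic chromosomes, fell in both treated groups. Top2a had 8981, 8766 and 8510 normalized counts in CARM1i libraries, 4939, 4955 and 4672 in KO libraries, and 12881, 13252 and 12608 in WT libraries. Mki67 had 4068, 4096 and 3380 normalized counts in CARM1i libraries, 2027, 1924 and 1995 in KO libraries, and 5568, 5500 and 5565 in WT libraries. All KO libraries lay below all CARM1i libraries and these below all WT libraries, and CARM1i replicate 3 was the lowest of its group for both genes. Top2a changed by -0.56 ± 0.03 in CARM1i cells (limma adjusted p = 5.08e-09) and by -1.41 ± 0.03 in KO cells (7.19e-15), and Mki67 by -0.53 ± 0.05 in CARM1i cells (limma adjusted p = 2.35e-06) and by -1.48 ± 0.05 in KO cells (7.05e-13). The promoter window of Mki67, whose start was not matched to a GENCODE M21 transcript, held CHR matches at -116 and -98.

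For some binding partners the ratio of their RNA levels did not overlap between the libraries of some groups. The ratio of their normalized counts was taken within each library for 9 pairs. These pairs were picked after the values had been seen, so no p-value is given. How often other gene pairs lie apart in this way was not examined. The size of a ratio also reflects gene lengths, so it is read only between groups. Bub3 over Bub1 was 3.68 ± 0.175 in CARM1i, 6.19 ± 0.245 in KO and 2.92 ± 0.0599 in WT cells (SD, n = 3 each). Bub3 over Bub1b was 3.15 ± 0.177 in CARM1i, 5.03 ± 0.187 in KO and 2.59 ± 0.103 in WT cells. Both ratios were highest in KO and lowest in WT cells, with no overlap between any of the groups. Securin over separase, Pttg1 over Espl1, was 0.609 ± 0.0537 in CARM1i, 0.997 ± 0.125 in KO and 0.557 ± 0.0154 in WT cells. The KO libraries (0.9003 to 1.14) lay above the CARM1i libraries (0.573 to 0.670), while the lowest CARM1i library only just exceeded the highest WT library (0.571).

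Other pairs moved less or not beyond their spread. Aurkb over Incenp was 0.481 ± 0.0451 in CARM1i, 0.434 ± 0.00963 in KO and 0.569 ± 0.0219 in WT cells, with both treated groups apart from WT but overlapping each other. Spc25 over Spc24 was 2.46 ± 0.0712 in CARM1i, 3.55 ± 0.746 in KO and 2.64 ± 0.426 in WT cells. There the KO libraries (2.70 to 4.09) overlapped the WT libraries (2.19 to 3.04) and not the CARM1i libraries (2.38 to 2.52). Birc5 over Cdca8 was 1.93 ± 0.120 in CARM1i, 2.11 ± 0.146 in KO and 2.25 ± 0.137 in WT cells, apart only between CARM1i and WT. For Nuf2 over Ndc80, Tpx2 over Aurka and Racgap1 over Ect2 the libraries of all 3 groups overlapped. The mean ratio in CARM1i, KO and WT cells was 1.06, 0.998 and 1.09 for Nuf2 over Ndc80. In the same 3 groups it was 3.79 (CARM1i), 3.75 (KO) and 3.85 (WT) for Tpx2 over Aurka, and 1.80 (CARM1i), 1.87 (KO) and 1.83 (WT) for Racgap1 over Ect2.

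**Figure D4:**
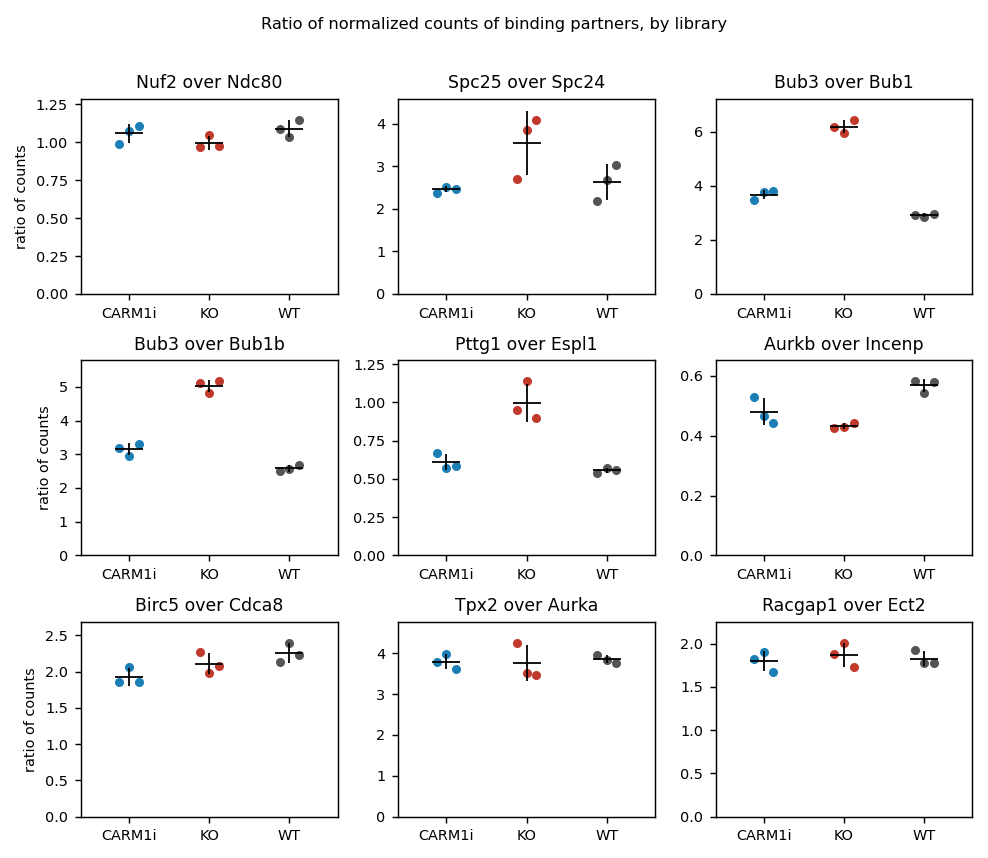
Ratio of the normalized counts of partner genes (y axes, from 0, with a scale of their own in each panel) in the CARM1i, KO and WT libraries; points are libraries, horizontal bars means and vertical bars SD (n = 3). The KO libraries are highest for Bub3 over Bub1, Bub3 over Bub1b and Pttg1 over Espl1, while the groups overlap for Nuf2 over Ndc80, Tpx2 over Aurka and Racgap1 over Ect2.

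Further genes of the same machinery were read from 8 lists. Of 25 other kinetochore genes, 15 fell in CARM1i cells (median of the list -0.39) and 23 fell in KO cells (median -0.88), where Cenpx alone rose. Without WT replicate 2, 10 of the 25 were called lower in CARM1i cells. Across all tested genes, 8.59% were called lower and 10.5% higher in CARM1i cells, and 20.5% lower and 21.4% higher in KO cells. The counts of every list are to be read against these shares. Knl1, the kinetochore platform for Bub proteins, changed by -0.54 in CARM1i and -1.36 in KO cells, and Hjurp, the chaperone that loads Cenpa, by -0.41 in CARM1i and -1.01 in KO cells. Cenpx, which also serves the Fanconi DNA repair complex, had 193, 186 and 184 normalized counts in CARM1i libraries, 216, 203 and 213 in KO libraries, and 169, 175 and 172 in WT libraries. Its KO change of 0.29 ± 0.10 (limma adjusted p = 0.0249) missed the threshold without KO replicate 1 or 3 (0.0714 or 0.0655), without WT replicate 1 (0.0671) and with DESeq2 (DESeq2 adjusted p = 0.059). Of 9 other checkpoint genes, 6 fell in CARM1i cells (median -0.35) and 8 in KO cells (median -0.92), and without WT replicate 2 the CARM1i count was 4. Among them, Sgo2a, a protector of centromeric cohesin, changed by -0.44 in CARM1i and -1.19 in KO cells, and Trip13, the ATPase that remodels Mad2, by -0.52 in CARM1i and -1.18 in KO cells.

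The core subunits of the APC/C had median changes near 0. Of 14, 3 fell in CARM1i cells (median -0.05), against 8.59% of all tested genes. In KO cells 6 fell (median -0.08), against 20.5% of all tested genes, and 1 rose. Their changes in KO cells ran from -0.43 to 0.20. The activator Cdc20 and the enzyme Ube2c of the APC/C fell in both groups. Cdc23 and Anapc5 changed by -0.20 and -0.11 in CARM1i and by -0.38 and -0.27 in KO cells. Without WT replicate 2 or 3, only 1 subunit was called in CARM1i cells, and the Anapc5 call also ended without CARM1i replicate 3 (limma adjusted p = 0.083). Among the falls in KO cells, Anapc1 changed by -0.09 ± 0.03. That call ended without KO replicate 2 or 3 (limma adjusted p = 0.086 or 0.0749), without WT replicate 1 or 2 (0.073 or 0.0617) and without limma's trend (0.0641). Anapc13, the one subunit that rose in KO cells (0.20 ± 0.07, limma adjusted p = 0.0342), missed the threshold without KO replicate 2 or 3 (0.1 or 0.127), without WT replicate 1 or 3 (0.124 or 0.0525), after rescaling to a common total (0.0565) and with DESeq2 (DESeq2 adjusted p = 0.0605). Of 3 other regulators of the APC/C, 2 fell in CARM1i and 3 in KO cells. Fbxo5 (Emi1), its inhibitor until mitosis, had 1025, 1066 and 1006 normalized counts in CARM1i libraries, 544, 460 and 451 in KO libraries, and 1538, 1534 and 1383 in WT libraries. Its change was -0.52 ± 0.07 in CARM1i cells (limma adjusted p = 2.56e-05) and -1.62 ± 0.07 in KO cells (3.35e-12), the KO value being further below 0 than that of any of the 42 genes. Ube2s, which extends ubiquitin chains for the APC/C, changed by -0.11 in CARM1i cells, a call that ended without WT replicate 2 (limma adjusted p = 0.059) and without limma's trend (0.051), and by -0.26 in KO cells.

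Of 13 genes of cohesin and its regulators, 5 fell in CARM1i cells (median -0.06), and 8 fell and 1 rose in KO cells (median -0.30). The CARM1i count includes Pds5b, a cohesin regulator, whose call ended without limma's trend (limma adjusted p = 0.112), with no filter (0.0563), with only CARM1i and WT in the fit (0.0754), with replicate number as a block (0.0528) and with DESeq2 (DESeq2 adjusted p = 0.0565). It also ended without any 1 of the libraries other than WT replicate 3 (limma adjusted p = 0.0506 to 0.219). Esco2 and Cdca5 (sororin), which establish cohesion in S phase, changed by -0.64 and -0.44 in CARM1i and by -1.46 and -1.18 in KO cells. Rad21, the cohesin subunit that separase cleaves, changed by -0.25 in CARM1i and -0.52 in KO cells. Esco1, an acetyltransferase related to Esco2, rose by 0.14 ± 0.04 in KO cells (limma adjusted p = 0.0124), which missed the threshold without KO replicate 1 (0.0531). Of 13 switches of mitotic entry and exit, 4 fell in CARM1i cells (median -0.12), and 7 fell and 2 rose in KO cells (median -0.26). Mastl (Greatwall kinase) and Cdc25c, a phosphatase that activates Cdk1, changed by -0.21 and -0.63 in CARM1i and by -0.80 and -1.34 in KO cells. Ensa and Arpp19, the targets through which Mastl restrains phosphatase PP2A, were the members that rose in KO cells, by 0.12 ± 0.04 (limma adjusted p = 0.0231) and 0.09 ± 0.03 (0.0404). The Ensa call ended without KO replicate 1 or WT replicate 1 (limma adjusted p = 0.125 or 0.132), under quantile normalization (0.0852) and without limma's trend (0.0834). The Arpp19 call ended without KO replicate 1 or 2 (limma adjusted p = 0.167 or 0.071), without WT replicate 1, 2 or 3 (0.0691, 0.0885 or 0.0864), and under quantile normalization (0.33). It also ended after rescaling to a common total (limma adjusted p = 0.0851), without limma's trend (0.0678), with replicate number as a block (0.0586) and with DESeq2 (DESeq2 adjusted p = 0.0705).

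Of 22 other spindle and cytokinesis genes, 15 fell and 1 rose in CARM1i cells (median -0.34), and 19 fell and 1 rose in KO cells (median -0.88). Aspm and Spag5 (astrin), which organise spindle poles and attachments, changed by -0.54 and -0.48 in CARM1i and by -1.27 and -1.20 in KO cells. Haus2, an augmin subunit that promotes microtubule branching, rose by 0.20 ± 0.05 in KO cells (limma adjusted p = 0.00308), and this call held with any library left out. Clasp1, a microtubule plus-end protein, was called higher in CARM1i cells (0.11 ± 0.04, limma adjusted p = 0.0442), a call that ended under 7 of the other settings (0.0518 to 0.147, DESeq2 included) and with any single library left out (0.0535 to 0.138) other than KO replicate 1, KO replicate 3 and CARM1i replicate 3. Of the 5 subunits of the MuvB core, which binds the CHR, 2 were called lower in CARM1i cells (median -0.09) and 3 fell in KO cells (median -0.27). In CARM1i cells Lin9 changed by -0.23 ± 0.06, which missed the threshold without CARM1i replicate 2 or WT replicate 2 (limma adjusted p = 0.0502 or 0.0513). Lin54 changed there by -0.14 ± 0.05 (limma adjusted p = 0.0467), and that call ended under 4 of the other settings (0.0518 to 0.112, DESeq2 included) and with any single library left out (0.0518 to 0.19) other than CARM1i replicate 1 and WT replicate 3. In KO cells Lin9 changed by -0.85 and Lin54, the subunit that contacts the CHR, by -0.53.

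**Figure D5:**
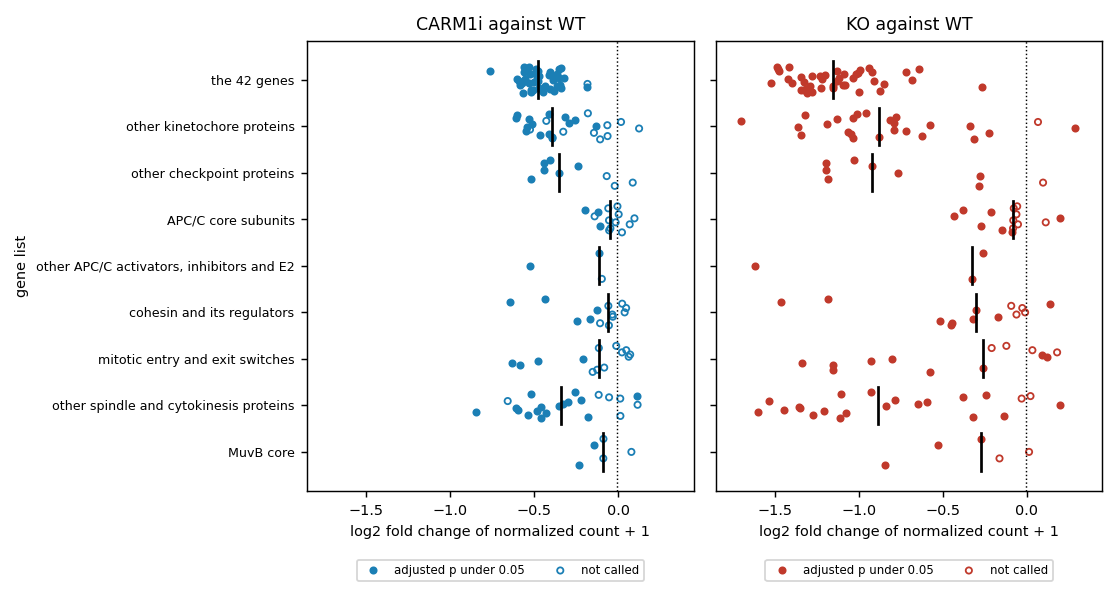
Log2 fold changes of normalized count + 1 (x axes) in CARM1i against WT (left) and KO against WT (right) for the 42 genes and the 8 lists of related genes (y axis); filled points passed the adjusted p of 0.05, open points did not, and the bars are list medians. The medians of the 42 genes are -0.48 (left) and -1.15 (right), while those of the APC/C core subunits are -0.05 and -0.08.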

How the data were processed

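Poly(A) RNA of 9 MEF libraries was sequenced by the authors from stranded libraries, per the labels' protocols. Per the submitters' processing notes, the tools were DESeq 1.18.0, HTSeq 0.6.0 and TopHat2 2.0.10, with mm10 as the build. Neither strand setting nor annotation release is stated there. The deposited values are a signal per gene, read counts divided by DESeq size factors (0.925 to 1.16). In each library 100% of values were whole multiples of a smallest step (tolerance 1e-06), so whole reads were recovered.

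Ensembl IDs were named from GENCODE M21: 16413 of 16428 matched without their version, 15078 with it, and 15 did not. The main test was limma 3.58.1 (R 4.3.3), using its mean-variance trend, on log2(value + 1) of 14560 genes with a mean of at least 10, with the 3 groups in 1 fit and Benjamini-Hochberg adjustment over all tested genes at 0.05. A fold change on this scale understates the change of low genes. Alternatives, whose effect the closing section gives, were quantile normalization, a common total, other filters (none, or a mean of at least 50), pseudocounts of 0.5 and 10, limma without its trend, DESeq2 1.42.0 and edgeR 4.0.16 run on recovered reads, fits of 2 groups, a replicate block, an adjusted p under 0.01, and leaving out each library. On recovered reads, edgeR's quasi-likelihood test called 3031 genes lower and 3119 higher in KO cells, and 1271 lower and 1550 higher in CARM1i cells, both against WT. Levels per kilobase used merged exon lengths of GENCODE M21.

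Same-numbered libraries did not deviate together (correlations -0.087 to 0.027), so numbers were treated as names. No 2 replicates agreed within sampling noise (chi-square per gene 2.47 to 8.46). The genes, the lists and the roles were chosen with earlier results of these data known. Values in every library are given for the members of each role with the largest and the smallest change in KO cells, for the most abundant members per kilobase of roles with over 5 genes, and for members not called or with overlapping groups. Of the other lists, the genes called against the list's direction and those with the smallest adjusted p are named.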

Additional observations from a re-analysis of the deposited data

How the results depend on the processing

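All 42 calls in KO against WT held under every one of the 21 alternative settings. The median change of the 42 genes there was -1.12 after quantile normalization, -1.17 after rescaling to a common total and -1.13 with a pseudocount of 10, each further from the reported value of -1.15 than the spread between replicates, and -1.20 to -1.15 when single libraries were left out; the cause was not tested. In CARM1i against WT, leaving out single libraries gave 37 to 41 genes called lower and medians of -0.50 to -0.45. In CARM1i against KO it gave 39 to 41 called higher and medians of 0.69 to 0.76. With replicate number as a block, which does not pair these libraries, 42 were lower in KO and 40 in CARM1i against WT, and 40 were higher in CARM1i against KO. The only members whose call changed were Cenpk, Cenpn, Cenph and Spc24 in CARM1i against WT, and Pttg1, Ckap2 and Bub3 in CARM1i against KO. Without limma's trend the calls of the first 4 ended (limma adjusted p = 0.0921, 0.104, 0.118 and 0.11). No direction changed in any setting. Of 14560 tested genes, 44.9% of the calls in CARM1i against WT were lower as reported and 52.9% after rescaling to a common total, where the median of all genes was -0.0208. The number of libraries, 3 a group, limits the precision most for the genes with few reads, such as Cenpm and Spc24.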
